A study of Mus musculus with 12 samples.

Results

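A set of 7 genes of sphingosine-1-phosphate (S1P) biology was followed in mouse neutrophils and macrophages treated with the neuropeptide CGRP. They comprised the receptor genes S1pr1, S1pr2 and S1pr4, the kinase genes Sphk1 and Sphk2, the lyase gene Sgpl1 and the phosphatase gene Sgpp1. They were taken by gene name from a list drawn up with earlier results of these data known, and all 7 were present among the 52636 genes of both count tables. The study asked how CGRP, released by sensory neurons, changes the transcriptome of these myeloid cells. Both cell types came from the bone marrow of C57BL/6J mice aged 8 to 12 weeks. Neutrophils were enriched with a kit and treated when fresh for 4 h in RPMI with either 1 nM CGRP or saline (PBS). Monocytes were isolated with a kit and grown for 3 days in DMEM/F12 with M-CSF at 10 ng/ml, after which the medium was replaced with medium holding 1 nM CGRP or saline for 4 h. They are called macrophages here, although the sample labels read monocytes/macrophages. Each of the 4 groups held 3 libraries, 12 in all. Nothing in the labels ties a library to a separate mouse or culture, so p-values measure the spread between these libraries, which may be technical.

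S1P is a lipid mediator made inside cells by phosphorylation of sphingosine and kept high in blood and low in tissue. It acts on a family of G-protein-coupled receptors, of which S1PR1 couples to Gi and drives movement towards S1P, S1PR2 couples mainly to G12/13 and restrains movement in many cells, and S1PR4 is largely a receptor of blood cells. The sphingosine kinases make S1P, S1P phosphatases return it to sphingosine, and the lyase destroys it for good. The CGRP receptor signals chiefly through Gs and cyclic AMP, and CREB, a transcription factor activated by cyclic AMP, binds the cAMP response element.

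Among those of the 7 genes that could be tested within a cell type, S1pr2 had the largest fold change with CGRP. Of the 7, S1pr4 had the largest difference between the saline groups, and the 250 bases before their RefSeq starts (GRCm38.p6, both on the minus strand, printed 5′ to 3′ in the direction of transcription) are shown for that reason. The S1pr2 window was chr9:20976794-20977043 and the S1pr4 window chr10:81500138-81500387. Capitals mark each match, on either strand, to the cAMP response element TGACGTCA, its core TGACG, or the CACCC box (reverse complement GGGTG) bound by KLF factors.
S1pr2: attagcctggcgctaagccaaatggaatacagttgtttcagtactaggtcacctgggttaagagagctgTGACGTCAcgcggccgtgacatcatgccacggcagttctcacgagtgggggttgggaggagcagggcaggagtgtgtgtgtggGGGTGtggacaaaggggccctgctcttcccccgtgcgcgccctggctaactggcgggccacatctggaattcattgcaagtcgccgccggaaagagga
S1pr4: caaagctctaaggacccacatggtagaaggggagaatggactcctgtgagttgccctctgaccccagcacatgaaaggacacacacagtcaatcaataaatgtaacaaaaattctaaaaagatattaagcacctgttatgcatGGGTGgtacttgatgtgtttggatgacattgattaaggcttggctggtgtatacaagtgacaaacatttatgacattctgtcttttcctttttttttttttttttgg
The S1pr2 window held the full element TGACGTCA, which began 181 bases before the start. Its 2 matches to the core TGACG lay inside that palindrome, 1 on each strand. The full element was found in 508 of the 32851 promoter windows of that length (1.55%), and the core in 17.8% of them. The S1pr4 window held neither. Both windows held 1 CACCC box, and 52.0% of all windows held at least 1. The S1pr2 window had 59.2% G and C with 14 CpG sites, and the S1pr4 window 38.8% with 0 CpG sites. Sphk1, Sphk2, Sgpl1 and Sgpp1 also had RefSeq windows, 5 for Sphk1 and 2 for Sphk2, and none of them held the full element. The core TGACG was found in 2 of the Sphk1 windows and 1 of the Sphk2 windows. No RefSeq window was available for S1pr1, so its promoter was not searched. These matches describe letters and were not tested for binding.

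On GRCm38, S1pr1 (ENSMUSG00000045092) lies at chr3:115710433-115715072, S1pr2 (ENSMUSG00000043895) at chr9:20962361-20976781 and S1pr4 (ENSMUSG00000044199) at chr10:81497747-81500132. Sphk1 (ENSMUSG00000061878) lies at chr11:116530925-116536674, Sphk2 (ENSMUSG00000057342) at chr7:45709467-45718002, Sgpl1 (ENSMUSG00000020097) at chr10:61098642-61147703 and Sgpp1 (ENSMUSG00000021054) at chr12:75714249-75735729. All are protein-coding, and Sphk1 alone is on the plus strand. Sphk2 overlaps genes on the opposite strand at both ends, Dbp (5 to 66 counts per library) and Rpl18 (1295 to 2716 counts). The strand setting of the counting is not given in the sources used here, so reads in the overlaps cannot be assigned with certainty.

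The libraries held between 2002559 and 3631989 counts, each count being 1 deduplicated molecule tag, and 3 counts, taken as the floor, corresponded to 0.826 to 1.50 CPM (counts scaled to a common library total). Levels below are CPM after TMM over the 12 libraries, with mean ± SD and n = 3 per group. The labelled cell types were checked against 12 markers each. Neutrophil markers summed to 158000 to 237000 CPM in neutrophil libraries and 303 to 446 CPM in macrophage libraries, with S100a8 the most abundant. Macrophage markers summed to 2020 to 2540 CPM in neutrophil libraries and 36800 to 51800 CPM in macrophage libraries, with Apoe the most abundant. All 12 markers of each set were detected in its own cell type. Between the saline groups, 12 of 12 neutrophil markers were higher in neutrophils and 11 of 12 macrophage markers were lower there by limma-voom. In that contrast 35.4% of all genes tested were higher and 32.5% lower. The macrophage marker Ccr2 did not pass, at 317.2 CPM in saline neutrophils and 284.3 CPM in saline macrophages (log2 difference 0.16, adjusted p = 0.162).

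Neutrophil libraries also held RNA of other marrow cells. There 8 of 8 B cell markers were detected, summing to 684 to 791 CPM (mostly Ighm), and 8 of 8 erythroid markers, summing to 5880 to 7490 CPM (mostly Hbb-bs). The 8 basophil, mast cell and eosinophil markers summed to 1480 to 1820 CPM, with Prss34 the most abundant. The 10 T and NK cell markers summed to 30.4 to 46.0 CPM, with Cd3d the most abundant. Of the 4 tested there, 1 passed by limma-voom, beside 2.53% of all genes tested. This was Klrk1, which rose with CGRP (log2 fold change 1.36, adjusted p = 0.0214). In that list edgeR called 1 gene and DESeq2 called 0. Cd3d, Cd2 and Il7r did not pass (log2 fold change -0.40, -0.04 and 0.67). In macrophage libraries the B cell genes Cd79a, Ms4a1, Vpreb3 and Pax5 were at 0. So were the T and NK cell genes Cd3e, Cd3g and Ncr1. Of the 2 T and NK cell markers tested in macrophages, 1 passed by limma-voom, beside 7.43% of all genes tested. This was Cd4, which rose with CGRP (1.68, adjusted p = 0.0394) from 3 to 10 counts to 14 to 20 counts. In that list edgeR called 1 gene and DESeq2 called 0, and Il7r did not pass (0.31, adjusted p = 0.292 by limma-voom). The T and NK cell list there summed to 136 to 225 CPM, nearly all Il7r. The 8 endothelial markers summed to 6.12 to 18.1 CPM over the 12 libraries, mostly Egfl7 in neutrophils and Eng in macrophages, with Tek and Cldn5 at 0 throughout. Platelet markers summed to 634 to 978 CPM in macrophages and 129 to 196 CPM in neutrophils, mostly Pf4, and Tubb1 was at 0 in all 12 libraries. In bulk RNA, a gene carried by fewer cells of a type and a gene with less RNA per cell cannot be told apart.

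CGRP moved the S1P receptor genes of macrophages in opposite directions and left every gene of the set short of the threshold in neutrophils. In macrophages, S1pr2 fell and S1pr1 rose, making 2 of the 5 genes tested, against 7.43% of all 9393 genes tested by limma-voom (698 genes with an adjusted p under 0.05, 3.46% higher and 3.97% lower with CGRP). S1pr4 and Sphk1 had too few counts in macrophages to be tested. In neutrophils 0 of 7 passed, against 2.53% of 9819 genes tested (248 genes, 1.51% higher and 1.02% lower), and 0 of 7 had an unadjusted p under 0.05 or passed by edgeR. DESeq2 called 0 of the 5 to which it gave an adjusted p. Levels in saline and CGRP libraries did not overlap for S1pr1 and S1pr2 in macrophages and overlapped for the other 3 genes tested there and for all 7 in neutrophils. Among all genes tested, 24.1% in macrophages and 17.8% in neutrophils had groups that did not overlap. The median log2 fold change was 0.0978 over the 5 genes in macrophages and 0.00629 over the 7 in neutrophils, beside 0.00465 and 0.000834 over all genes tested.

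**Figure D1:**
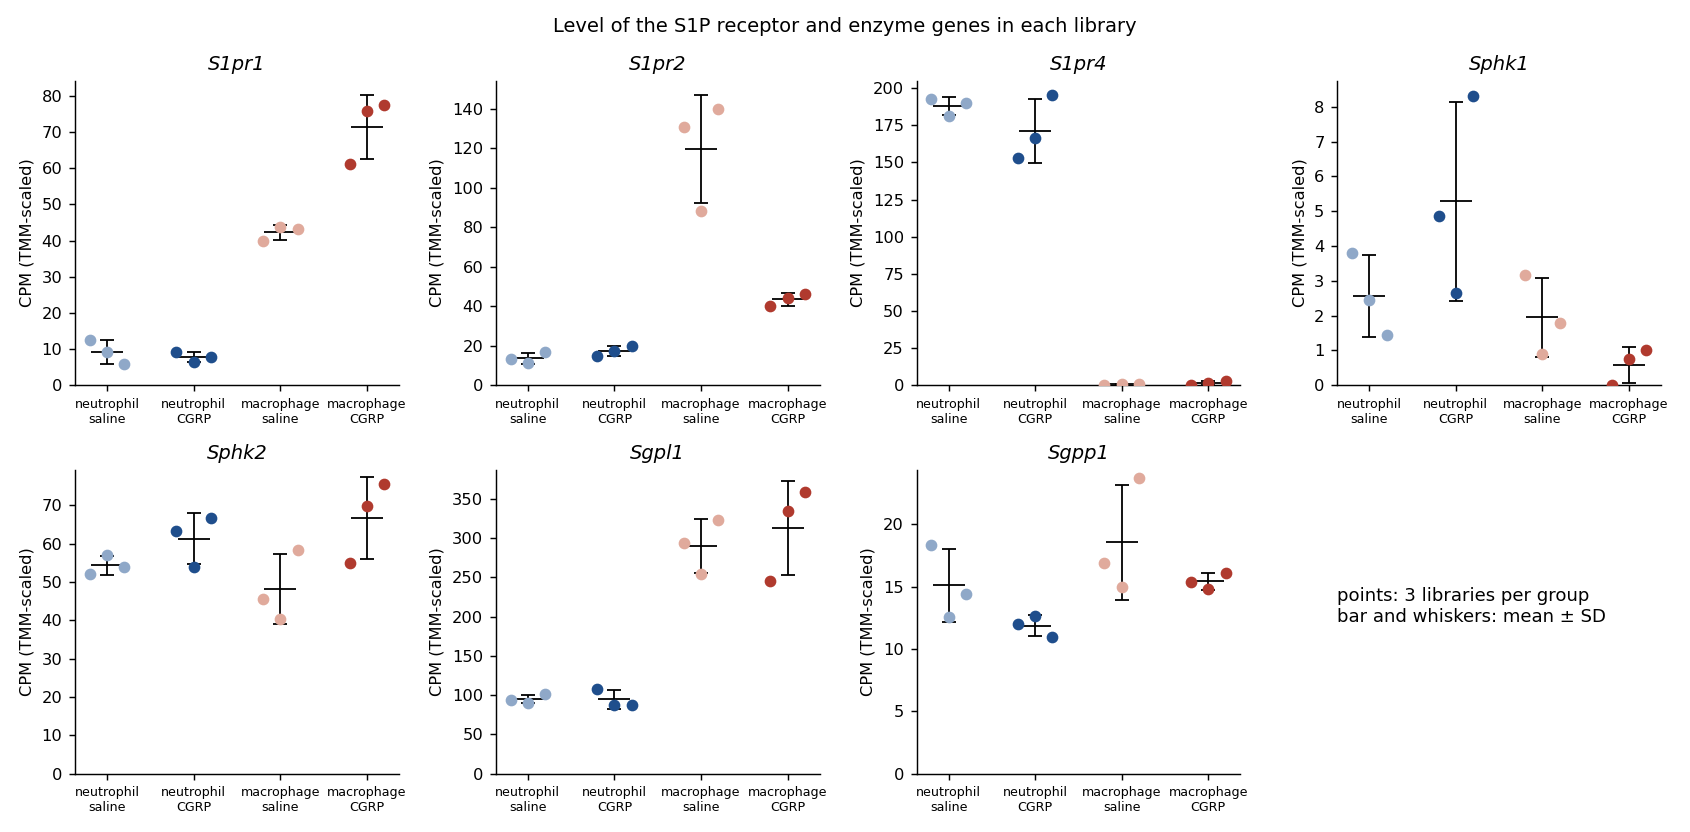
TMM-scaled CPM of each S1P gene (vertical axis, from 0) in every library, by cell type and treatment; points are libraries, and bars with whiskers are the mean ± SD of 3. In macrophages, S1pr2 sat between 88.4 and 139.9 CPM with saline and between 39.8 and 46.3 with CGRP, whereas S1pr4 was near 0 in every macrophage library.

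Of the 7 genes where tested within a cell type, S1pr2 showed the largest change. The saline macrophage libraries held 456, 295 and 389 counts, and the CGRP libraries 127, 119 and 92. Every CGRP library lay below every saline library, and the saline libraries spread more widely, with replicate 2 the lowest of them. The level went from 119.7 ± 27.5 to 43.4 ± 3.29 CPM (n = 3 each), a log2 fold change of -1.44 (SE 0.19, 95% confidence interval -1.84 to -1.04, adjusted p = 1.10e-04), which is 2.71-fold lower. By size it ranked 93 among the 373 genes that fell. It passed the threshold under all 10 alternative analyses, with log2 values between -1.48 and -1.43, and without each of the 6 libraries in turn, with values between -1.65 and -1.31.

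In neutrophils, where the gene was much scarcer, S1pr2 had 41, 36 and 46 counts in saline libraries and 46, 58 and 45 in CGRP libraries. The groups overlapped, at 13.5 ± 2.81 and 17.2 ± 2.39 CPM. The fitted log2 fold change was 0.37 (95% confidence interval -0.08 to 0.82, adjusted p = 0.518). The CGRP effect differed between the cell types in the interaction test over the 12 libraries (macrophages minus neutrophils -1.80, SE 0.31, adjusted p = 0.00146), and S1pr2 was the 1 gene of the 7 to pass that test, which 2.36% of 10694 genes passed (1.21% with a higher value in macrophages and 1.15% with a lower one). That call held under the 9 alternatives that could give it and without each of the 12 libraries.

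S1pr1, the receptor that S1P uses to draw leukocytes out of tissues, went the other way in macrophages. It had 139, 146 and 120 counts in the saline libraries against 195, 205 and 154 in the CGRP libraries. All 3 CGRP libraries were above all 3 saline libraries, and replicate 3, the shallowest of each group, was the lowest in counts but not in CPM. The level went from 42.3 ± 2.08 to 71.4 ± 8.99 CPM, with a 95% confidence interval of the log2 fold change from 0.41 to 1.08 (adjusted p = 0.00723). The call held under all 10 alternatives (adjusted p 3.98e-04 to 0.0206) but was lost without saline replicate 1 (adjusted p = 0.0598) or CGRP replicate 2 (0.0592), while the log2 fold change stayed between 0.69 and 0.86 without each library in turn. By size it ranked 249 of the 325 genes that rose.

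In neutrophils S1pr1 had 39, 30 and 16 counts in saline libraries against 28, 22 and 18 in CGRP libraries. The saline libraries alone spanned both ends of the range, and the interval of the log2 fold change, -0.80 to 0.44, held both a fall and a rise. The difference in effect between macrophages and neutrophils was 0.93 (SE 0.34) and missed the threshold (adjusted p = 0.188), so the S1pr1 effect was not shown to differ between the cell types. With library quality weights that difference was 1.08 and passed (adjusted p = 0.0447), the lowest of the 9 alternatives, which reached 0.336.

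**Figure D2:**
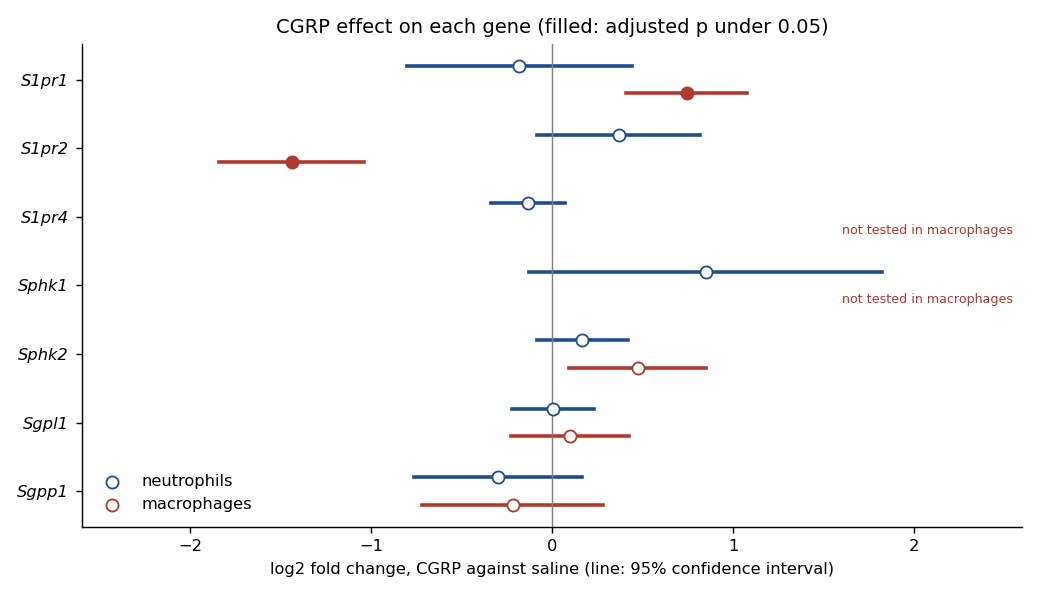
Log2 fold change with CGRP against saline (horizontal axis) for each S1P gene in neutrophils (blue) and macrophages (red), with 95% confidence intervals from limma-voom; filled points have an adjusted p under 0.05. S1pr2 at -1.44 and S1pr1 at 0.74 in macrophages are the filled points, and the neutrophil intervals all cross 0.

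Set against each other in the same library, the S1pr2 and S1pr1 counts changed places in macrophages. S1pr2 made up 76.6%, 66.9% and 76.4% of their joint counts with saline, a mean of 73.3% ± 5.54 (SD, n = 3). With CGRP it made up 39.4%, 36.7% and 37.4%, a mean of 37.8% ± 1.40 (n = 3). The 3 CGRP libraries lay close together and under every saline library, and no 95% Wilson interval of a CGRP library, at most 44.9%, met one of a saline library, at least 62.4%. The mean share was 35.5 percentage points lower with CGRP. Since the share sets the gene that fell against the gene that rose, it describes both changes on a scale that cancels library depth and adds no support to either. Its exact permutation p of 0.1 is the smallest that 3 against 3 libraries can give and was fixed by that choice of genes. Its intervals cover counting error only.

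In neutrophils the same share was 51.2%, 54.5% and 74.2% in saline libraries, against 62.2%, 72.5% and 71.4% in CGRP libraries. The groups overlapped, and the saline libraries spread the wider (SD 12.4 against 5.66 percentage points). The mean share was 8.73 points higher with CGRP, which is less than the SD of the saline libraries (exact permutation p = 0.4). These shares rest on 62 to 80 counts per library in neutrophils and 246 to 595 in macrophages.

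**Figure D3:**
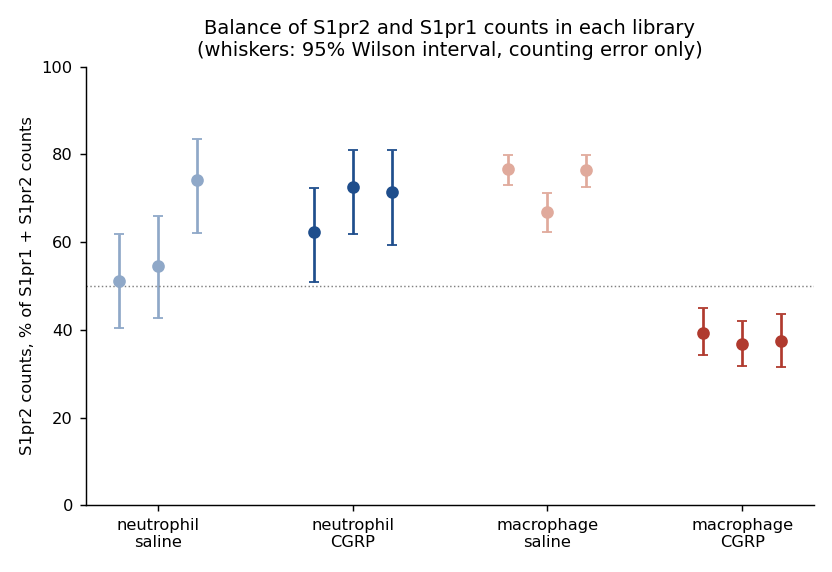
S1pr2 counts as a percentage of S1pr1 plus S1pr2 counts (vertical axis, 0 to 100) in each of the 12 libraries, with 95% Wilson intervals. The macrophage CGRP libraries lie between 36.7% and 39.4%, the macrophage saline libraries between 66.9% and 76.6%, and the dotted line marks equal counts.

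S1pr4, a receptor found mostly in lymphoid and myeloid cells, separated the cell types almost completely. Neutrophil libraries held 610, 591 and 528 counts in the saline group, and 470, 567 and 445 in the CGRP group. Macrophage libraries held 1, 2 and 2 counts in the saline group, and 1, 3 and 5 in the CGRP group. Summed over libraries and corrected for depth, S1pr4 was 361 times higher in saline neutrophils than in saline macrophages (1729 against 5 counts, exact 95% counting interval 154 to 1110), and 148 times higher with CGRP (77.8 to 325). The neutrophil markers in the same macrophage libraries summed to 303 to 446 CPM, and their part in these few counts was not tested.

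In neutrophils the S1pr4 level was 188.2 ± 6.01 CPM in saline libraries, against 171.4 ± 21.6 CPM in CGRP libraries. The groups overlapped because CGRP replicate 3, at 195.1 CPM, was the highest of the 6 libraries, while replicates 1 and 2 were the lowest. The log2 fold change was -0.13 with a 95% confidence interval of -0.34 to 0.07 (adjusted p = 0.635), so that a fall beyond 0.34 on the log2 scale was outside the interval. S1pr4 took 89.3% ± 0.82 (n = 3) of the summed counts of S1pr1, S1pr2 and S1pr4 in saline neutrophils and 87.2% ± 0.69 in CGRP neutrophils, against 0.337% ± 0.149 and 1.07% ± 0.85 in macrophages.

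The other members of the receptor family were barely detected. S1pr3, best known from vessel and heart muscle, had 5, 7 and 1 counts in saline neutrophils, 2, 6 and 7 in CGRP neutrophils, and a single count in the 6 macrophage libraries. S1pr5, a receptor of NK cells and oligodendrocytes, had 4, 1 and 2 counts in saline neutrophils and 2, 0 and 1 with CGRP. It had 0 counts in all 6 macrophage libraries, which allows up to 3 counts per library, or 0.863 to 1.50 CPM there. Neither gene could be tested.

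Of the kinases, Sphk1, the cytoplasmic enzyme that many stimuli induce, was near the floor. Its counts were 12, 8 and 4 in saline neutrophils and 15, 9 and 19 in CGRP neutrophils. The groups overlapped, and replicate 3 was the lowest of the saline libraries and the highest of the CGRP libraries. The log2 fold change was 0.85, with an interval from -0.13 to 1.83 (adjusted p = 0.478). In macrophages Sphk1 had 11, 3 and 5 counts in saline libraries against 0, 2 and 2 in CGRP libraries. The depth-corrected ratio of saline to CGRP was 3.90 on 19 against 4 counts, with an exact 95% counting interval of 1.30 to 15.8 that leaves out the spread between libraries. The interaction term, -2.59, did not pass (adjusted p = 0.202).

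Sphk2, the kinase found largely in the nucleus and mitochondria, was the more abundant kinase gene per length in every group. In macrophages it had 159, 135 and 162 counts in saline libraries against 175, 189 and 150 in CGRP libraries. In CPM the groups overlapped, since saline replicate 3 at 58.3 was above CGRP replicate 1 at 54.8. The log2 fold change was 0.47 (95% confidence interval 0.10 to 0.85, unadjusted p = 0.0171, adjusted p = 0.136 by limma-voom). It passed with library quality weights (0.56, adjusted p = 0.0165) and without CGRP replicate 1 (0.61, adjusted p = 0.0435), and adjusted p over the 10 alternatives ran from 0.0165 to 0.261. In neutrophils the level was 54.4 ± 2.48 CPM in saline libraries, against 61.3 ± 6.58 CPM in CGRP libraries, with a log2 fold change of 0.17 (-0.09 to 0.42, adjusted p = 0.631). The overlapping Dbp had a log2 fold change of -0.64 in macrophages (adjusted p = 0.163) and Rpl18 of 0.10 (adjusted p = 0.745), and what they add to the Sphk2 counts was not tested.

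Sgpl1, the lyase that ends the life of S1P, was the most abundant S1P gene of macrophages. Saline macrophages held 1023, 848 and 899 counts of it, and CGRP macrophages 784, 905 and 714. In CPM the CGRP libraries held both the lowest value, 245.7, and the highest, 359.2, so the groups overlapped throughout. The log2 fold change was 0.10 with an interval from -0.23 to 0.42 (adjusted p = 0.787). Saline neutrophils held 298, 294 and 281 counts, and CGRP neutrophils 333, 299 and 200. Their log2 fold change of 0.01 had an interval from -0.22 to 0.23 (adjusted p = 0.992), so changes beyond these bounds lay outside it in neutrophils.

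Sgpp1, the phosphatase that returns S1P to sphingosine, was low in all groups. Its levels were 15.1 ± 2.94 and 11.9 ± 0.84 CPM in saline and CGRP neutrophils, and 18.6 ± 4.59 and 15.4 ± 0.66 CPM in saline and CGRP macrophages. The groups overlapped in both cell types. The log2 fold change was -0.30 in neutrophils (-0.76 to 0.16, adjusted p = 0.642) and -0.22 in macrophages (-0.72 to 0.28, adjusted p = 0.675).

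The saline groups of the cell types were also compared. Between saline neutrophils and saline macrophages 4 of the 7 genes passed, in a comparison in which 67.9% of 10694 genes passed (35.4% higher and 32.5% lower in neutrophils). S1pr4 was higher in neutrophils (adjusted p = 8.44e-12). With 5 counts over the saline macrophage libraries, S1pr4 passed the filter on low counts only through neutrophils. S1pr2 was lower in neutrophils by 3.13 on the log2 scale (8.76-fold lower, adjusted p = 1.58e-11), S1pr1 by 2.23 (4.71-fold, adjusted p = 1.69e-08) and Sgpl1 by 1.60 (3.03-fold, adjusted p = 7.86e-10). Sphk1, Sphk2 and Sgpp1 had log2 differences of 0.44, 0.20 and -0.26, with adjusted p of 0.534, 0.251 and 0.273. Cell type, medium and days with M-CSF changed together in this comparison and cannot be told apart.

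The groups could be ordered by level for each gene. S1pr2 ran from saline neutrophils over CGRP neutrophils and CGRP macrophages to saline macrophages, and only the 2 neutrophil groups among neighbours overlapped. S1pr1 ran from CGRP neutrophils over saline neutrophils and saline macrophages to CGRP macrophages, again with only the neutrophil groups overlapping. Compared between genes by CPM per kilobase of exon, S1pr4 was first in saline neutrophils at 78.9, followed by Sgpl1 at 15.5 and Sphk2 at 13.1. In saline macrophages Sgpl1 was first at 47.3 CPM per kilobase, followed by S1pr2 at 15.0, S1pr1 at 13.9 and Sphk2 at 11.6. With CGRP the macrophage order after Sgpl1 (51.0) was S1pr1 (23.5), Sphk2 (16.0) and S1pr2 (5.44). Tags were taken near the 3′ end of transcripts, so division by exon length is only a rough scale, and by CPM alone S1pr2 also stood above S1pr1 with saline and below it with CGRP.

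Around the 7 genes, lists of 70 further genes covered the handling of S1P and its parent lipids, the G proteins of its receptors, regulators of S1PR1 and the receptors of lysophosphatidic acid. In macrophages 6 of the 49 tested passed (3 higher, 3 lower), which is 12.2%, beside the 7.43% of all genes given above. In neutrophils 1 of 46 passed (2.17%), beside 2.53% of all genes. The median log2 fold change of the lists was 0.00188 in macrophages and 0.0132 in neutrophils.

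Of the 3 genes of S1P export and carriage tested in macrophages, 1 passed, beside 7.43% of all genes tested. This was Abca1, a membrane transporter that loads lipid onto apolipoproteins, which had 156, 126 and 182 counts in saline macrophages and 363, 488 and 385 with CGRP. Every CGRP library lay above every saline library, and Abca1 rose 3.31-fold (log2 fold change 1.73, SE 0.22, adjusted p = 7.52e-05). Sgms2, which makes sphingomyelin at the plasma membrane, was the 1 listed gene to pass in both cell types. It rose in macrophages from 17, 9 and 26 counts to 44, 71 and 70 (log2 fold change 2.18, SE 0.43, adjusted p = 0.00440). In neutrophils Sgms2 rose from 393, 398 and 321 counts to 670, 600 and 410 (0.67, SE 0.10, adjusted p = 2.44e-04). Both Sgms2 calls and the Abca1 call held without each library in turn.

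The other sphingomyelin genes that passed in macrophages fell. Sgms1, the Golgi sphingomyelin synthase, went from 62, 85 and 60 counts to 34, 30 and 25 (-0.90, adjusted p = 0.0309), and lost the call without saline replicate 2 or any 1 of the 3 CGRP libraries (adjusted p 0.0677 to 0.131). Smpd3, a neutral sphingomyelinase that releases ceramide, went from 160, 163 and 192 counts to 69, 84 and 61 (-0.97, adjusted p = 0.00846), a call that held without each library. Neutrophils held 0 or 1 count of Smpd3 per library. Of the 9 sphingomyelin genes tested in macrophages, 3 passed, beside 7.43% of all genes tested, and the median log2 fold change of the 9 was -0.12, beside 0.00465 over all genes.

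Elsewhere on the lists, Acer3, an alkaline ceramidase that frees sphingosine from ceramide, fell in macrophages from 334, 374 and 256 counts to 220, 143 and 108 (-0.76, adjusted p = 0.00633). Its call was lost without CGRP replicate 2 (adjusted p = 0.0619). Lpar6, a receptor of the related lipid lysophosphatidic acid, rose from 327, 292 and 186 counts to 466, 299 and 262 (0.65, adjusted p = 0.0209). Its call was lost without saline replicate 3, CGRP replicate 1 or CGRP replicate 3 (adjusted p 0.0531 to 0.0677). None of the 8 genes for de novo sphingoid base synthesis, 4 ceramide synthases, 6 G alpha subunits or 7 regulators of S1PR1 tested in macrophages passed by limma-voom, beside 7.43% of all genes tested. Of these 1, 1, 0 and 0 had an unadjusted p under 0.05, edgeR called 0 in each list, and DESeq2 called 1 gene of sphingoid base synthesis.

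**Figure D4:**
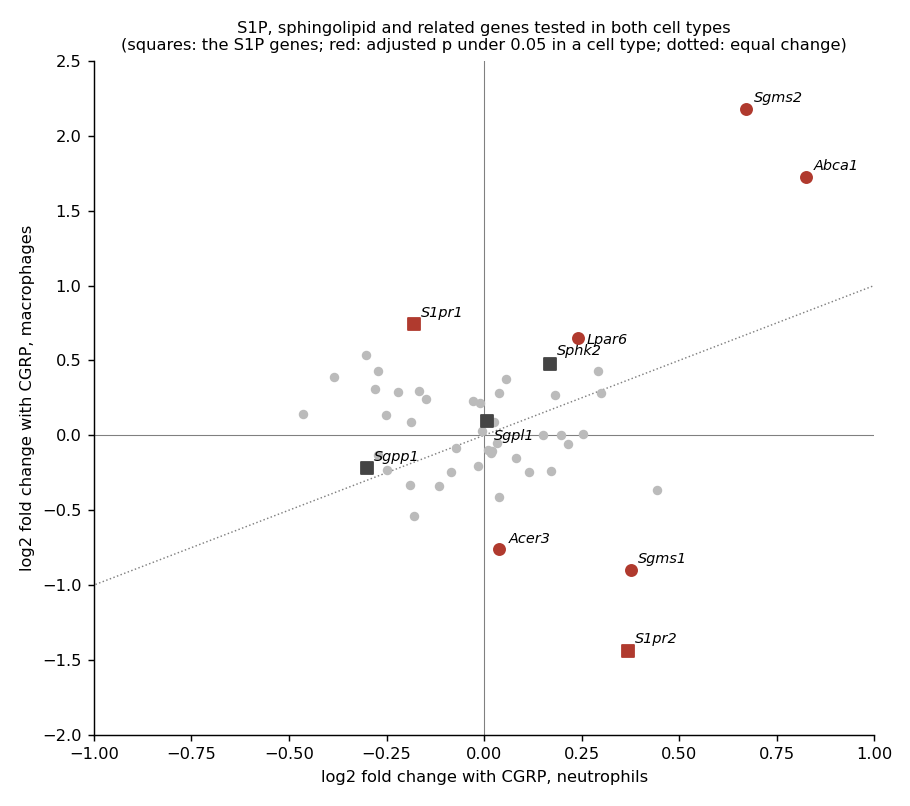
Log2 fold change with CGRP in neutrophils (horizontal axis) and macrophages (vertical axis) of the 50 listed genes tested in both, the S1P genes as squares and the others as circles; red marks an adjusted p under 0.05 in either cell type, and the dotted line equal change. Sgms2 and Abca1 lie highest at 2.18 and 1.73 in macrophages, and S1pr2 lowest at -1.44.

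Among the regulators of S1PR1, 7 of 8 were higher in saline neutrophils than in saline macrophages and 0 were lower. In that contrast 35.4% of all genes tested were higher and 32.5% lower. The median log2 difference of the 8 was 1.13, beside 0.0344 over all genes. Cd69, 1 of the 7, had 57 counts over the saline neutrophil libraries and 1 over the saline macrophage libraries. It passed the filter on low counts only through neutrophils. Klf2, a transcription factor that switches on S1pr1 in lymphocytes, is named here after its values were seen. It stood at 101.8 ± 5.81 CPM in saline neutrophils and 7.75 ± 4.79 CPM in saline macrophages, the reverse of the S1pr1 order. With CGRP the Klf2 log2 fold change was -0.03 in neutrophils (adjusted p = 0.955) and 0.23 in macrophages (adjusted p = 0.831), where the mean went the other way, to 7.32 ± 1.12 CPM, so no direction is given.

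Among the marker lists, 2 of the 12 macrophage markers, Apoe and Ccr2, passed by limma-voom in macrophages, beside 7.43% of all genes tested. In macrophages edgeR passed Ccr2 alone and DESeq2 passed both. By limma-voom 0 of the 8 neutrophil and 0 of the 2 B cell markers tested there passed, with 2 and 1 at an unadjusted p under 0.05, and 0 of either list passed by edgeR or DESeq2. The sums of the lists were not tested, and 24.1% of all genes had groups that did not overlap. Macrophage markers summed to 36800 to 41500 CPM with saline and 45400 to 51800 CPM with CGRP, without overlap. Apoe, the lipoprotein that receives lipid from ABCA1, made up most of that sum and rose (0.46, adjusted p = 0.0263). Ccr2, a chemokine receptor of monocytes, fell in macrophages (-0.81, adjusted p = 4.80e-04) and in neutrophils (-0.49, adjusted p = 0.00134). Neutrophil markers summed to 303 to 397 CPM in saline and 420 to 446 CPM in CGRP macrophages. B cell markers summed to 120 to 145 CPM in saline and 103 to 118 CPM in CGRP macrophages, and to 758 to 791 and 684 to 728 CPM in saline and CGRP neutrophils. Mitochondrial genes took 1.44% to 1.57% of counts in saline and 1.23% to 1.38% in CGRP macrophages, again without overlap. The part of these differences in the S1P receptor results was not tested.

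Genes whose levels ran most like those of the changed receptors were found by Pearson correlation of log2(CPM + 1) over the 12 libraries, among 7426 genes with a mean of at least 10 CPM. These correlations describe 4 groups of 3 libraries and are dominated by the gap between cell types. The genes were picked over libraries that hold the CGRP effect, so their own changes with CGRP add no support to the receptor results. For S1pr2 they were Prkch (r = 0.993), a protein kinase C, Osbpl8 (0.984), a lipid transfer protein, Clic4, Sqle and Igf2bp2 (0.978 each). Prkch went from 67.1 to 20.8 CPM in macrophages with CGRP (-1.72, adjusted p = 1.31e-04) and was at 6.45 and 8.17 CPM in neutrophils. Sqle, an enzyme of cholesterol synthesis, had a log2 fold change of -1.03 in macrophages (adjusted p = 0.00150). Adjusted p by limma-voom in macrophages ran from 1.27e-04 for Osbpl8 to 0.0291 for Clic4 over the genes picked for S1pr2. For S1pr1 they were Lrpap1 (r = 0.992), a chaperone of lipoprotein receptors, Gfer (0.991), Tmem19 (0.991), Naglu (0.988), a lysosomal enzyme, and Slc9a9 (0.987), an endosomal ion exchanger. Of these only Lrpap1 passed in macrophages (0.45, adjusted p = 0.0354), and the other 4 had adjusted p between 0.0924 and 0.512.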

How the data were processed

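RNA from 12 libraries was read as 3′ tags with unique molecular identifiers. The authors processed reads with nfCore/RNAseq (v3.2), using its UMI option, aligned them to GRCm38 with STAR, counted genes with featureCounts and deposited raw counts per gene, 1 table per cell type. The annotation release and strand setting are not given in the sources used here. The values were checked to be whole, and 0 pairs of libraries were identical.

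Each cell type was tested on its own 6 libraries with limma-voom after TMM (two-sided, Benjamini–Hochberg over all genes tested, threshold 0.05), following the study's methods. The filter on low counts, edgeR's filterByExpr, was chosen here. The difference of the CGRP effect between cell types and the contrast of saline groups came from 1 fit over 12 libraries. Low genes left untested are given as counts. Exact counting intervals are given only for Sphk1 in macrophages and for S1pr4 between the cell types. Floors of 3 counts cover counting error only. Gene names matched GENCODE release 21 on GRCm38 for 52489 of 52636 identifiers. Promoter windows of 250 bases came from RefSeq (GRCm38.p6).

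The 7 genes and the lists were chosen with earlier results of these data known. The named genes are the 7, S1pr3 and S1pr5, each listed gene past the threshold for CGRP in a cell type, the most abundant and any changed gene of each marker list, and the 5 genes most correlated with each changed S1P gene. Klf2, Cd69, Cd2, Dbp, Rpl18 and marker genes at 0 are additions.

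The alternatives tried were DESeq2, its size factors within limma-voom, the quasi-likelihood test of edgeR, library totals without TMM, no filter, at least 10 counts in every library, library quality weights, the replicate number as a block, thinning to the smallest library, a single fit over 12 libraries, the 6 saline libraries alone, and leaving out each library. Steps were tested on simulated data. A simulated 1.5-fold change was called for 38% of changed genes in neutrophils, 21.3% in macrophages and 9.8% in the interaction test. For a 2-fold change these were 74%, 60.3% and 34.7%, and for a 4-fold change 100%, 100% and 84.5%. Versions were DESeq2 1.42.0, edgeR 4.0.16 and limma 3.58.1 under R 4.3.3, and matplotlib 3.10.9, scipy 1.17.1 and pandas 2.3.3 under Python 3.11.15 (seed 20240327).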

Additional observations from a re-analysis of the deposited data

Results flagged for a closer look

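Of the 57 genes of the lists tested, the 7 S1P genes included, the CGRP effect of 3 (5.26%) differed between the cell types in the interaction test of limma-voom over the 12 libraries, beside 252 of all 10694 genes (2.36%). For S1pr2 the effect in macrophages minus that in neutrophils was -1.80 on the log2 scale (adjusted p = 0.00146), with all 3 CGRP libraries below all 3 saline libraries in macrophages and overlapping groups in neutrophils. For Sgms1 the difference was -1.26 (adjusted p = 0.0212), from effects of -0.90 in macrophages and 0.38 in neutrophils. For Acer3 it was -0.78 (adjusted p = 0.0448), from effects of -0.76 and 0.04. The calls for Sgms1 and Acer3 were both lost with no filter on low counts (adjusted p = 0.0527 and 0.0922) and with counts thinned to the smallest library (0.0653 and 0.0525). Leaving out 1 library, the Sgms1 call was lost without neutrophil saline replicate 1 or 2, neutrophil CGRP replicate 1 or 2, macrophage saline replicate 2 or macrophage CGRP replicate 2 (adjusted p up to 0.0708). The Acer3 call was kept only without neutrophil CGRP replicate 2, macrophage saline replicate 3 or macrophage CGRP replicate 1, and its adjusted p rose to 0.157 at most. The difference for Sgms2 was 1.51 and missed the threshold (adjusted p = 0.0615), but passed in 3 of 8 alternatives: edgeR's quasi-likelihood test, library quality weights and the replicate block (adjusted p 0.00490 to 0.0307). It also passed without macrophage saline replicate 3 or macrophage CGRP replicate 1.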

How the results depend on the processing

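The S1pr2 calls in macrophages, between the cell types and between the saline groups, and those of S1pr1, S1pr4 and Sgpl1 between the saline groups, kept their direction and side of the threshold under every alternative that gave a value. For S1pr4, which passed the filter on low counts only through neutrophils, this adds no support. Library quality weights raised the calls in macrophages to 1406 and between cell types to 520, and moved Sphk2 in macrophages (0.56) and the S1pr1 difference (1.08) past the threshold. A single fit over 12 libraries gave 137 calls in neutrophils and 1050 in macrophages. Values near 0 changed sign without passing. In neutrophils Sgpl1 was -0.0053 with no filter and -0.011 in the single fit. Between cell types Sgpl1 was -0.026 and Sgpp1 -0.015 with library totals, a scaling that shifted the median of all genes by -0.118 there, and Sgpp1 was -0.012 after thinning.

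Without 1 library at a time, calls ranged from 138 to 234 in neutrophils, fewest without saline replicate 1 or 2 (138 each) and CGRP replicate 2 (153). They ranged from 347 to 765 in macrophages, with 347 without saline replicate 1, 348 without CGRP replicate 2 and 439 without CGRP replicate 3. Between cell types they ranged from 149, without macrophage saline replicate 1, to 328. In neutrophils the log2 fold change ranged from -0.44 to 0.062 for S1pr1, -0.091 to 0.061 for Sgpl1 and -0.087 to 0.12 for Acer3. In macrophages it ranged from 0.69 to 0.86 for S1pr1, 0.35 to 0.61 for Sphk2 and -0.0043 to 0.26 for Sgpl1. The difference between cell types ranged from -0.0028 to 0.27 for Sgpl1, -0.060 to 0.26 for Sgpp1 and -0.93 to 0.15 for Smpd3, and the saline contrast of Sphk1 from -0.012 to 0.87. Causes were not tested.

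Between libraries with the same replicate number, deviations from group means correlated at -0.013 to 0.137 in neutrophils and -0.179 to 0.273 in macrophages. Between different numbers the correlations ran from -0.136 to 0.108 and from -0.402 to 0.386. With 3 libraries per group these values cannot decide whether the numbers mark pairs. The main tests did not take them as pairs. Under the replicate block, 289 genes were called in neutrophils, 1007 in macrophages and 337 between cell types, and S1pr2 and S1pr1 in macrophages were at -1.44 and 0.75. DESeq2 gave no adjusted p for S1pr1 and Sphk1 in neutrophils. Depth limits Sphk1, S1pr3 and S1pr5 everywhere and S1pr4 in macrophages.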
